A study of Mus musculus with 13 samples.

Results

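Glycolysis splits glucose into pyruvate, which lactate dehydrogenase turns into lactate for export, and glycogen is the store from which muscle draws glucose units at the start of contraction. Many steps have paralogous enzymes with different tissue distributions, and fast skeletal muscle is known for forms of its own, such as the phosphorylase encoded by Pygm. The genes described here are a chosen list of 35 genes of glycolysis, lactate handling and glycogen metabolism, of 19838 genes in each count table. All 35 were found by symbol. The list follows known function and not measured values.

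RNA was measured in gastrocnemius muscle and in aorta of mice aged 88 weeks on an FVBxC57BL/6 background. The muscle groups were dNdK (3 libraries) and Rosa26 (4 libraries), and the aorta groups were dNdK (2 libraries) and Rosa26 (4 libraries). The dNdK mice carried GFP-FOXM1dNdK tg/+ together with Rosa26-rtTA tg/+. Mice of the Rosa26 groups carried Rosa26-rtTA tg/+ without the GFP-FOXM1dNdK transgene, so rtTA was present in all 13 libraries. FOXM1 is a forkhead transcription factor of mitotic genes, and rtTA is a transactivator that acts in the presence of doxycycline. The labels do not give the sex of the mice or a doxycycline treatment. Libraries were made by amplifying a short amplicon from each targeted transcript, and each held 3919526 to 13683952 gene counts. Levels are counts scaled to library size with TMM factors over the 13 libraries, in the unit CPM.

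Several libraries held RNA of other tissues, and the tissue labels were checked against marker lists. The summed level of 10 fast fibre genes was 193000 to 321000 CPM in muscle dNdK and 291000 to 324000 CPM in muscle Rosa26, against 8.9 to 12.2 CPM in aorta dNdK and 10.3 to 16 CPM in aorta Rosa26. The summed level of 7 smooth muscle genes was 5080 to 8140 CPM in muscle and 270 to 459 CPM in aorta, most of the muscle sum being Des, desmin, which skeletal muscle also makes. Smtn of that list was also higher in every muscle library, at 108 to 181 CPM against 31.3 to 62.9 CPM in aorta. Myh11 overlapped between the tissues, at 30.3 to 85.7 CPM in muscle and 51.6 to 83.1 CPM in aorta. So did Cnn1, at 0.747 to 5.96 CPM in muscle and 4.91 to 13.1 CPM in aorta. Acta2 (49.6 to 139 CPM in muscle, 66 to 248 CPM in aorta) and Lmod1 (2.53 to 8.18 and 2.12 to 5.58 CPM) overlapped as well. Tagln was at or near 0 in all libraries, so no gene of this list was higher in every aorta library than in every muscle library. The summed level of 6 endothelial genes did not overlap, at 298 to 501 CPM in muscle and 666 to 1800 CPM in aorta. Each of the 6 aorta libraries held 3760 to 7000 CPM of the brown fat gene Ucp1, so its values are of vessel wall with fat. Of the brown fat list, Cidea, Elovl3 and Dio2 were also higher in every aorta library than in any muscle library. Cox7a1 overlapped, at 567 to 969 CPM in aorta and 502 to 764 CPM in muscle, and Cpt1b was at most 0.855 CPM in aorta. Myh6, the myosin of heart muscle, was at 553 CPM in aorta dNdK 2 and at 654 and 268 CPM in aorta Rosa26 1 and 2, while the remaining 3 aorta libraries held 0 to 1.47 CPM of it. Of the heart list, Myl7, Tnni3, Mybpc3, Actc1 and Sln were high in the same aorta libraries as Myh6. Myl4 and Nppa were not, at 1.07 CPM or less in every aorta library. One muscle library, dNdK 3, held 139 CPM of the adipocyte gene Adipoq and 756 CPM of Ucp1. Among the rest of the muscle libraries Adipoq reached 9 CPM and Ucp1 7.78 CPM. Foxm1 had 0 to 24 counts in each library, and whether its amplicon reads the transgene is not stated, so it does not check the genotype.

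Between the tissues, Pygm, Eno3, Pgam2, Ppp1r3a, Slc16a3, Phkg1 and Pfkm were far higher in muscle, and Pygl, Pfkl and Pfkp far lower. In Rosa26 mice 31 of the 35 genes could be tested, and 17 were higher and 8 lower in muscle than in aorta (edgeR quasi-likelihood test, adjusted p under 0.05). Among all 11058 genes tested, 27.5% were higher and 31% lower. The median log2 fold change was 1.55 for the 31 genes and −0.08 for all genes. The 17 and 8 genes that passed were also those whose 4 muscle and 4 aorta libraries did not overlap, against 25.9% and 26.9% of all genes tested. Gapdh, Pgam1, Eno1 and Fbp1 had too few counts to be tested. In tissue RNA, fewer cells of a type and less RNA per cell cannot be told apart.

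**Figure D1:**
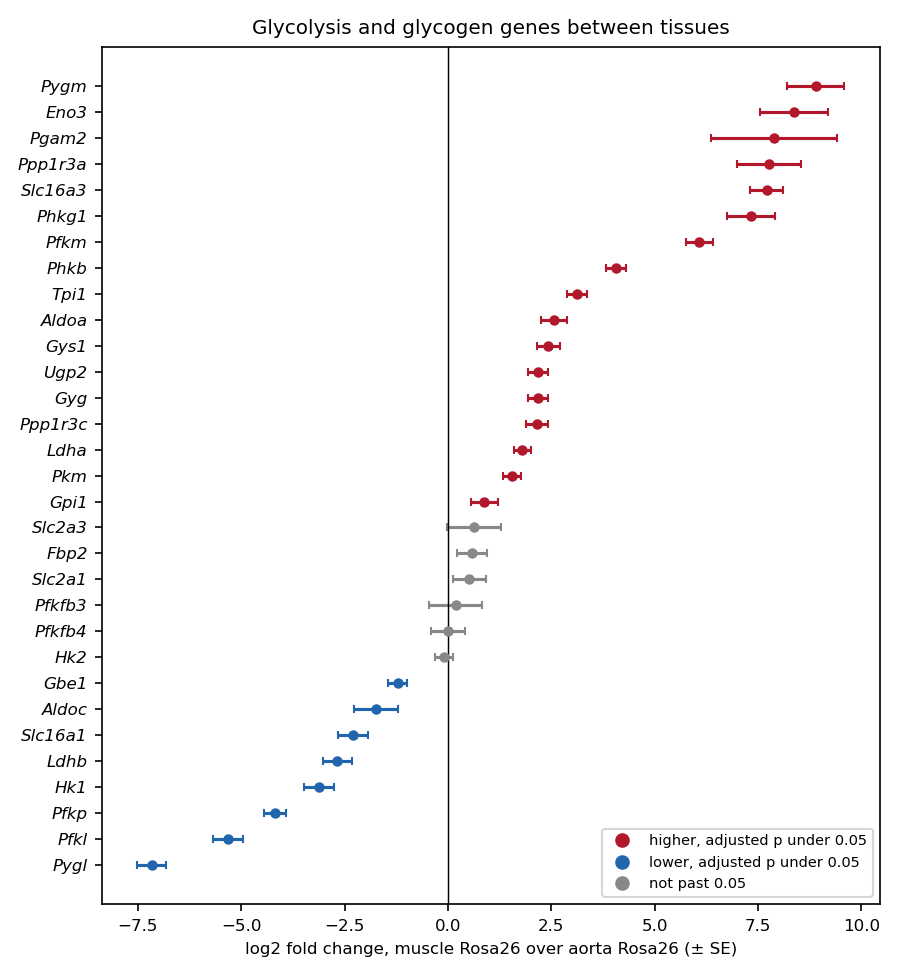
Log2 fold change of each tested gene in muscle Rosa26 over aorta Rosa26 (x axis, bars are ± SE, n = 4 libraries each), sorted by size, one gene a row. Red genes were higher and blue genes lower at an adjusted p under 0.05. Pygm lies at one end, at 8.89, and Pygl at the other, at −7.16.

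The 4 genes with the largest rise in muscle were Pygm, Eno3, Pgam2 and Ppp1r3a, and the one with the largest fall was Pygl. Their promoters are printed so that the sequences before genes at the ends of the range can be read beside their levels. Each line gives the 250 bases before the transcription start in the direction of the gene, from RefSeq on GRCm38.p6. Capitals mark matches on either strand to an E-box of muscle regulatory factors (CAGCTG), to the MEF2 motif of the factors of that name, and to the M-CAT motif of TEAD factors (CATTCC, or GGAATG on the other strand). The listed start of Eno3 lies within the span of the gene.
Pygm, chr19:6384158-6384407, plus strand: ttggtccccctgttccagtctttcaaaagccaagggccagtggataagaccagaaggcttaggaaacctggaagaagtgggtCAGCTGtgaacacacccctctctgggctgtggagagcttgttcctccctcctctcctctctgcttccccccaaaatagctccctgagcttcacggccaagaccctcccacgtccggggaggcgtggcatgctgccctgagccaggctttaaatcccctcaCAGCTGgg
Eno3, chr11:70656926-70657175, plus strand: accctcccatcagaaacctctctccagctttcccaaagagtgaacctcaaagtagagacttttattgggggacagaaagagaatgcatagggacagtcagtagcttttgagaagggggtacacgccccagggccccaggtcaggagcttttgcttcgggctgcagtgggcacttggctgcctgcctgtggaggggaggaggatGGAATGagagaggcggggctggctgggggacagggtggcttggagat
Pgam2, chr11:5803797-5804046, minus strand: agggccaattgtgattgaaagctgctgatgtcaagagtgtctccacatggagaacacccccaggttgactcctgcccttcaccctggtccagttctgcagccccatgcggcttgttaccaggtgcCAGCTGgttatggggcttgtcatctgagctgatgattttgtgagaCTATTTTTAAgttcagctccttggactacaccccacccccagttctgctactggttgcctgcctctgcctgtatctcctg
Ppp1r3a, chr6:14755275-14755524, minus strand: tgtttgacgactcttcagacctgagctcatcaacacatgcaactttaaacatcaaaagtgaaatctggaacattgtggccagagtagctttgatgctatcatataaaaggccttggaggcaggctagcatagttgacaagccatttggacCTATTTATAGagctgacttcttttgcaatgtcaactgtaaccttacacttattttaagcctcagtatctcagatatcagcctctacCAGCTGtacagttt
Pygl, chr12:70227684-70227933, minus strand: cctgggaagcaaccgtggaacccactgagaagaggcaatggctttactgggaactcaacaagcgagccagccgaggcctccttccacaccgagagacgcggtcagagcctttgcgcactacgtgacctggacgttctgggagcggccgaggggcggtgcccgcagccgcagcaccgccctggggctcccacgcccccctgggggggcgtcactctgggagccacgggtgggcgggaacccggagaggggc

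Of these promoters, that of Pygm held 2 E-boxes, those of Pgam2 and Ppp1r3a an E-box and a MEF2 match each, and that of Eno3 an M-CAT match. The promoter of Pygl held none of the 3 motifs. Those of Slc16a3, Phkg1 and Pfkm, genes far higher in muscle, held none of them either. The matches did not overlap one another. Among all 32851 RefSeq promoters of this length, 13% held an E-box, 2.92% a MEF2 match and 12.6% an M-CAT match. The 35 genes had 47 promoters in the table, for 34 of the genes, of which 19.1% held an E-box, 4.26% a MEF2 match and 10.6% an M-CAT match. A core of the hypoxia response element (ACGTG on either strand) was in 38.3% of the 47, against 16.6% of all. A GC box (GGGCGG) was in 51.1% of the 47, against 32.7% of all, and a TATA box (TATAAA) in 2.13%, against 12.4%. Some of the 47 overlap one another. A match is a run of letters and not a site of binding.

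The phosphorylases of glycogen breakdown differed in opposite directions between the tissues. Pygm, the muscle phosphorylase that cleaves glucose units from glycogen (chr19:6384408-6398464, GRCm38.p6), stood at 19700, 22900, 17200 and 19700 CPM in muscle Rosa26 1 to 4, against 95.7, 37, 15.9 and 17.9 CPM in aorta Rosa26 1 to 4. Every muscle library lay far above every aorta library, a 475-fold difference (log2 fold change 8.89, SE 0.70, edgeR adjusted p = 3.06e-06). The higher aorta values were those of Rosa26 1 and 2, the libraries with heart RNA, and without them the log2 fold change was 10.24. Pygl, the phosphorylase known from liver (chr12:70190815-70227683), stood at 5.04, 7, 3.92 and 4.4 CPM in muscle Rosa26 and 625, 572, 601 and 1130 CPM in aorta Rosa26. That was 143-fold lower in muscle (log2 fold change −7.16, SE 0.35, adjusted p = 1.43e-07).

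The listed subunits of phosphorylase kinase, which switches phosphorylase on, followed Pygm. The catalytic subunit of muscle, Phkg1, stood at 226, 165, 206 and 159 CPM in muscle Rosa26, against 2.65, 0.989, 0.279 and 0.427 CPM in aorta Rosa26 (log2 fold change 7.33, SE 0.57, adjusted p = 2.63e-06). The aorta libraries with heart RNA were again the higher ones, and without Rosa26 1 and 2 the log2 fold change was 9.17. Phkb, the regulatory beta subunit, stood at 1750, 1440, 1330 and 2010 CPM in muscle and 110, 84.6, 80.2 and 115 CPM in aorta, 16.7-fold higher (SE 0.24 on the log2 scale, adjusted p = 4.87e-07). Its aorta values showed no such split. Phkg2, another catalytic subunit and not among the listed genes, did not pass, and its libraries overlapped (log2 fold change −0.48, SE 0.37, edgeR adjusted p = 0.295). As ratios of 1 library, Pygl made up 0.0224% to 0.0305% of the counts of both phosphorylases in muscle Rosa26, against 86.7% to 98.4% in aorta Rosa26. Amplicons can differ in efficiency, so such shares are of counts and not of molecules, and their difference between tissues is the quantity tested.

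Of the listed genes of glycogen synthesis, Gys1, Gyg and Ugp2 were higher in muscle and Gbe1 was lower. Gys1, the glycogen synthase of muscle, averaged 669 ± 101 CPM in muscle Rosa26 and 124 ± 48.2 CPM in aorta Rosa26 (SD, n = 4 each), 5.39-fold higher (adjusted p = 3.36e-05). Gyg, glycogenin, which primes the glycogen particle, averaged 577 ± 39.5 CPM in muscle and 129 ± 35.7 CPM in aorta (4.5-fold, adjusted p = 3.12e-05). Ugp2, which makes UDP-glucose, the donor of glucose units, averaged 720 ± 89.7 CPM in muscle and 159 ± 53.5 CPM in aorta (4.52-fold, adjusted p = 4.24e-05). In each of these 3 genes the muscle libraries lay above the aorta libraries without overlap. Gbe1, the branching enzyme, stood at 73, 118, 123 and 92.1 CPM in muscle, against 282, 214, 170 and 280 CPM in aorta (log2 fold change −1.22, SE 0.24, adjusted p = 0.00148).

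Of the subunits that carry protein phosphatase 1 to glycogen, Ppp1r3a and Ppp1r3c were higher in muscle, while Ppp1r3b and Ppp1r3d, which are not in the list of 35, were lower (log2 fold changes −6.12 and −1.15, adjusted p = 2.69e-06 and 0.0186). Ppp1r3a, the targeting subunit of skeletal muscle, stood at 290, 195, 198 and 324 CPM in muscle Rosa26, against 3.17, 0.769, 0.0698 and 0.214 CPM in aorta Rosa26 (log2 fold change 7.77, SE 0.78, adjusted p = 1.5e-05). The highest aorta value was in Rosa26 1, and without Rosa26 1 and 2 the other 2 aorta libraries were at or under the floor of 3 counts. Ppp1r3c, a targeting subunit found in many tissues, averaged 545 ± 177 CPM in muscle and 123 ± 20.7 CPM in aorta (4.45-fold, adjusted p = 6.42e-05). The ratio of Ppp1r3a to Ppp1r3c was 6.72 higher in muscle on the log2 scale.

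Of the genes that bring in and phosphorylate glucose, one hexokinase differed and the transporters did not pass the test. Hk1, the hexokinase known from brain and red cells, stood at 2.99, 3.22, 5.1 and 5.79 CPM in muscle Rosa26, against 26.8, 45.7, 23.4 and 55.6 CPM in aorta Rosa26 (log2 fold change −3.12, SE 0.36, adjusted p = 4.05e-05). Hk2, the insulin-sensitive hexokinase of muscle and fat, averaged 466 ± 58.6 CPM in muscle and 498 ± 101 CPM in aorta, with overlapping libraries (log2 fold change −0.10, SE 0.21, adjusted p = 0.709). Hk2 thus held 98.8% to 99.3% of the counts of both hexokinases in muscle Rosa26 and 88.4% to 95.7% in aorta Rosa26. Slc2a1, the widely expressed glucose transporter GLUT1, averaged 14.4 ± 5.53 CPM in muscle and 9.96 ± 4.6 CPM in aorta (log2 fold change 0.51, SE 0.40). Slc2a3, the transporter GLUT3 known from neurons, was at 5.44 to 8.97 CPM in muscle Rosa26 1 to 3 and at 48.2 CPM in Rosa26 4, against 8.24 to 16.4 CPM in aorta. Its estimate of 0.63 (SE 0.65) rested on muscle Rosa26 4 and was −0.67 without it. Gpi1, which turns glucose 6-phosphate into fructose 6-phosphate, stood at 972, 1230, 1070 and 1270 CPM in muscle and 844, 785, 250 and 590 CPM in aorta. Its log2 fold change of 0.88 (SE 0.33) was close to the threshold (adjusted p = 0.0408), and the call was lost on scaling by total counts (0.01), in each strand alone (0.77 and 0.90), in 1 fit of all 13 libraries (0.88, adjusted p = 0.0571), and without aorta Rosa26 4 (0.88) or muscle Rosa26 2, 3 or 4 (0.87, 0.92 and 0.84).

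At phosphofructokinase, the committed step, the subunits traded places. Pfkm, the muscle subunit (chr15:98092589-98132447), stood at 4440, 4870, 4620 and 3040 CPM in muscle Rosa26, against 84.6, 72.1, 43.6 and 49.6 CPM in aorta Rosa26 (log2 fold change 6.08, SE 0.33, adjusted p = 2.83e-07). Pfkl, the liver subunit, stood at 8.22, 6, 7.74 and 3.4 CPM in muscle and 225, 355, 153 and 274 CPM in aorta (log2 fold change −5.32, SE 0.37, adjusted p = 1.26e-06). Pfkp, the subunit known from platelets, stood at 6.35, 9.56, 9.02 and 12.8 CPM in muscle and 161, 211, 139 and 177 CPM in aorta (log2 fold change −4.18, SE 0.26, adjusted p = 6.93e-07). No library of one tissue reached the range of the other for any of the 3 subunits. Pfkm held 99.5% to 99.7% of the counts of the 3 subunits in muscle Rosa26, against 9.9% to 18% in aorta Rosa26.

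The kinases that make fructose 2,6-bisphosphate, an activator of phosphofructokinase, varied more among libraries than between tissues. Pfkfb3, the inducible form, stood at 196, 253, 123 and 887 CPM in muscle Rosa26 and at 158, 127, 440 and 561 CPM in aorta Rosa26 (log2 fold change 0.19, SE 0.64, adjusted p = 0.819). Its high libraries were muscle Rosa26 4 and aorta Rosa26 3 and 4, and the estimate was −0.75 without muscle Rosa26 4. Pfkfb4, a form known from testis, averaged 4.01 ± 1.48 CPM in muscle and 3.9 ± 1.88 CPM in aorta. The fructose bisphosphatases work in the opposite direction. Fbp2, the muscle form, averaged 61.8 ± 30.9 CPM in muscle and 41.6 ± 13 CPM in aorta (log2 fold change 0.58, SE 0.36, adjusted p = 0.189), and Fbp1, the liver form, had at most 1 count in each muscle library and 5 to 10 counts in each aorta Rosa26 library.

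In the middle of the pathway Aldoa and Tpi1 were higher in muscle and Aldoc was lower. Aldoa, the aldolase of muscle, stood at 42600, 24600, 20300 and 36600 CPM in muscle Rosa26, against 5280, 3680, 4970 and 7100 CPM in aorta Rosa26 (5.9-fold, adjusted p = 6.92e-05). Tpi1, triosephosphate isomerase, averaged 3450 ± 591 CPM in muscle and 395 ± 75.3 CPM in aorta (8.74-fold, adjusted p = 2.53e-06). Both were separated between the tissues in every library. Aldoc, the aldolase of brain, was low everywhere, at 0.196 to 1.64 CPM in muscle Rosa26 and 2.42 to 3.85 CPM in aorta Rosa26 (log2 fold change −1.74, SE 0.53, adjusted p = 0.0159). With the number of the deposited names as a block, the call for Aldoc was lost (−1.98, adjusted p = 0.0516), as it was without muscle Rosa26 2 (−1.65) and without aorta Rosa26 1 and 2 (−1.75). It was also lost on the second strand alone (−1.08, adjusted p = 0.123), while the first strand alone gave −3.06 (adjusted p = 0.00491).

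Gapdh, Pgam1 and Eno1 could not be read from these counts. Gapdh, glyceraldehyde 3-phosphate dehydrogenase, stood at 0.209 to 1.44 CPM over the 13 libraries, Pgam1, the widely expressed phosphoglycerate mutase, at 0 to 0.11 CPM, and Eno1, the widely expressed enolase, at 0 to 0.33 CPM. A count of 3 stood for 0.219 to 0.765 CPM before TMM scaling, so these levels are at or near the floor in both tissues. The Gapdh transcript matched 75 annotated pseudogenes (at least 95% identity over at least 200 bases, GENCODE vM21), Ldha matched 4, Eno1 matched 2, and Gpi1, Ldhb, Pgam1, Pkm and Tpi1 matched 1 each. Reads that map to several places were 0.723% to 2.11% of a table and are not in the gene counts. Whether this set the low values was not tested.

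In the lower part of glycolysis Pgam2, Eno3 and Pkm were higher in muscle. Pgam2, the muscle phosphoglycerate mutase (chr11:5801637-5803796), stood at 3500, 5420, 5480 and 3110 CPM in muscle Rosa26, against 41.6, 31.3, 0.0698 and 0 CPM in aorta Rosa26 (log2 fold change 7.88, SE 1.53, adjusted p = 0.00134). Its aorta counts stood in the libraries with heart RNA, and the other 2 aorta libraries held 1 and 0 counts. Eno3, the muscle enolase (chr11:70653125-70662513), stood at 11300, 14700, 11500 and 10100 CPM in muscle and 86.5, 37.2, 8.52 and 11.3 CPM in aorta (log2 fold change 8.37, SE 0.83, adjusted p = 1.41e-05). Without aorta Rosa26 1 and 2 its log2 fold change was 10.29. Pkm, the pyruvate kinase of most tissues outside liver and red cells, averaged 6850 ± 1160 CPM in muscle and 2340 ± 341 CPM in aorta (2.92-fold, adjusted p = 0.00019), and its splice forms were not separated. The muscle shares within the Pgam and Eno pairs have no readable partner, since Pgam1 and Eno1 were near 0.

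For lactate, muscle held more of the enzyme form and the carrier that are known from fast fibres. Ldha, the subunit of muscle lactate dehydrogenase, stood at 6980, 8520, 7080 and 8120 CPM in muscle Rosa26, against 2660, 1880, 2070 and 2190 CPM in aorta Rosa26 (3.49-fold, adjusted p = 4.7e-05). Ldhb, the subunit known from heart, stood at 51.2, 63.9, 147 and 55.6 CPM in muscle and 543, 457, 502 and 539 CPM in aorta (log2 fold change −2.68, SE 0.35, adjusted p = 9.77e-05). Ldhb thus held 0.681% to 2.03% of the counts of both subunits in muscle Rosa26 and 17% to 19.8% in aorta Rosa26. Slc16a3, the lactate exporter MCT4 of glycolytic cells, stood at 211, 236, 204 and 224 CPM in muscle, against 0.59, 0.934, 0.768 and 2.56 CPM in aorta (log2 fold change 7.71, SE 0.40, adjusted p = 2.07e-07). Slc16a1, the carrier MCT1 that also takes lactate up, stood at 31.2, 43.9, 62.3 and 47.6 CPM in muscle and 318, 310, 105 and 184 CPM in aorta (log2 fold change −2.30, SE 0.36, adjusted p = 0.00037). Slc16a3 held 76.6% to 87.1% of the counts of both carriers in muscle Rosa26 and 0.185% to 1.38% in aorta Rosa26.

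**Figure D2:**
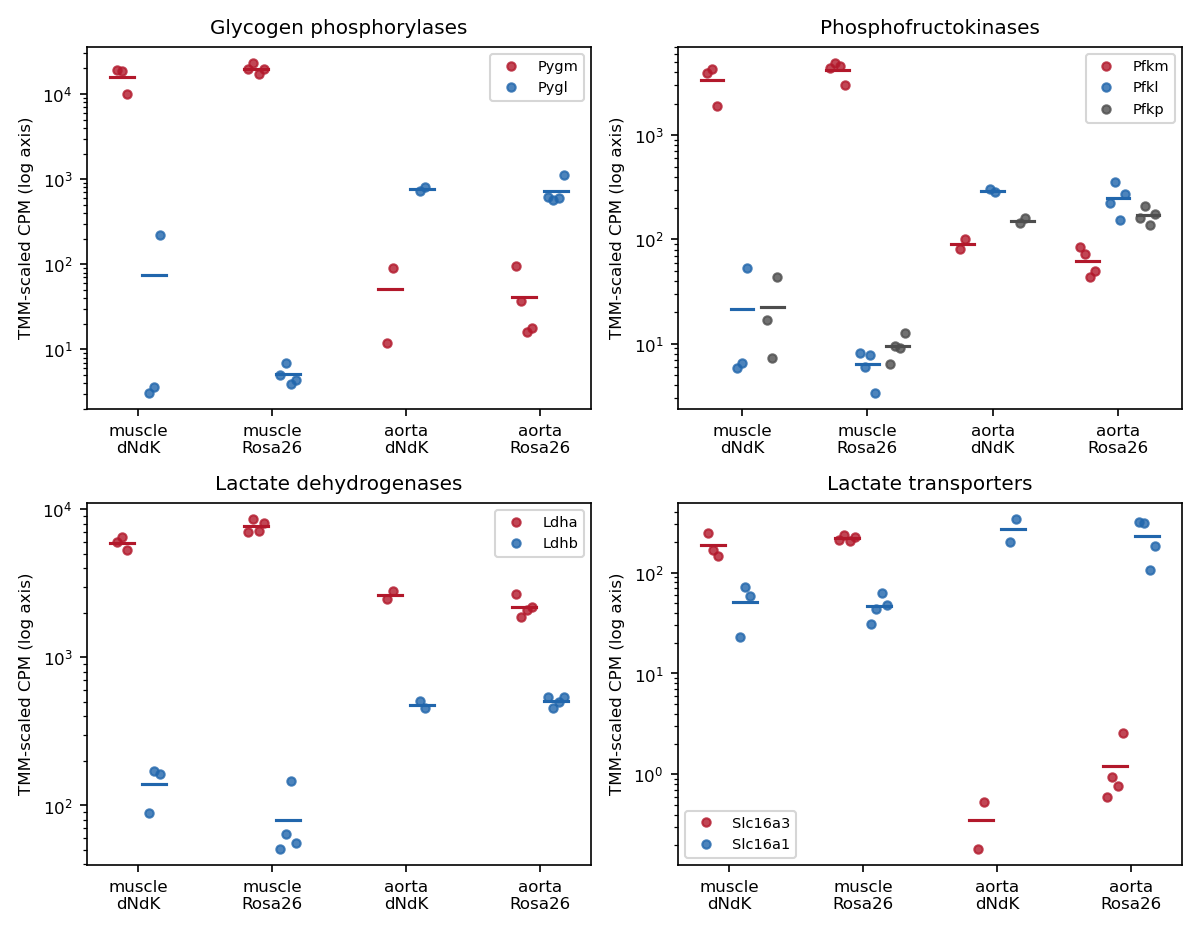
TMM-scaled CPM (y axis, log scale) of the phosphorylases, phosphofructokinases, lactate dehydrogenases and lactate carriers in muscle dNdK, muscle Rosa26, aorta dNdK and aorta Rosa26. Points are libraries and bars are group means. Pygm, Pfkm and Slc16a3 are the higher form of their family in all 7 muscle libraries and the lowest form in all 6 aorta libraries, and Ldha is above Ldhb in both tissues.

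Over the 12 families of paralogs, the log2 ratio of one form to the other differed between the tissues in 10 (exact two-sided permutation test of 4 against 4 libraries, p = 0.0286, the smallest this design allows, adjusted p = 0.0343 over 12 families). The differences in log2 ratio, muscle minus aorta, were 16.40 for Pygm, 10.82 for Pfkm, 9.90 for Slc16a3, 6.72 for Ppp1r3a, 3.45 for Fbp2 and 3.01 for Hk2. They were −4.63 for Ldhb and −4.48 for Aldoc. The values of 11.54 for Pgam2 and 10.55 for Eno3 were set by partners near 0 counts. Pfkfb3 against Pfkfb4 (−0.04) and Slc2a1 against Slc2a3 (0.47) did not pass (adjusted p = 0.943 and 0.873). The call for Fbp2 rested on Fbp1 counts of 10 or fewer and was lost with 5 in place of 0.5 added to each count (1.16), on the first strand alone (2.54) and without any 1 of the 4 aorta libraries (3.31 to 3.73).

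Other genes of these pathways moved in both directions. Of 55 further genes of glucose, lactate and glycogen metabolism, 49 were in the tables and 39 could be tested. Of the 39, 17 were higher and 14 lower in muscle, against 27.5% higher and 31% lower over all 11058 genes tested. Scaled by total counts, which moves the median of all genes by −0.88, the split was 11 higher and 20 lower. That scaling called 7552 of all 11058 genes in either direction. The larger rises included log2 fold changes of 4.15 (SE 0.34) for Stbd1, a glycogen binding protein, 3.54 (SE 0.21) for Epm2a, the glycogen phosphatase laforin, and 3.49 (SE 0.30) for Slc37a4, the glucose 6-phosphate carrier of the endoplasmic reticulum. The larger falls included −6.74 (SE 0.42) for Gys2, the glycogen synthase of liver and fat, −6.12 (SE 0.47) for Ppp1r3b, a glycogen targeting subunit known from liver, −3.37 (SE 0.43) for Slc16a7, the carrier MCT2, and −2.91 for Gpd1, glycerol 3-phosphate dehydrogenase, which is abundant in fat. Gpd1 stood at 853 to 1580 CPM in muscle Rosa26 and 7910 to 11700 CPM in aorta Rosa26. Fat RNA was present in all aorta libraries, so vessel wall and fat cannot be told apart here.

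The same contrast between tissues in dNdK mice, with 3 muscle and 2 aorta libraries, gave 10 genes higher and 5 lower of 32 tested, against 10.5% higher and 5.22% lower among all 11426 genes tested there. Pygm, Eno3, Pfkm, Phkg1, Ppp1r3a, Slc16a3, Phkb, Tpi1, Gys1 and Gyg were higher, and Hk1, Pfkp, Ldhb, Slc16a1 and Gbe1 were lower. The other genes called in Rosa26 mice did not pass there. Their log2 fold changes were 6.84 for Pgam2, 2.31 for Ppp1r3c, 2.00 for Aldoa, 1.16 for Ldha, 0.93 for Ugp2, 0.62 for Pkm, −1.72 for Aldoc, −3.37 for Pygl and −3.76 for Pfkl, and −0.29 for Gpi1, the one whose direction differed.

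In muscle, dNdK over Rosa26, 0 of 31 genes tested passed the edgeR test in either direction, and the share of all 10491 genes called was 0%. Estimates were lower for 21 genes and higher for 10, with a median log2 fold change of −0.21 against 0.03 for all genes, of which 46.9% had lower estimates. At an unadjusted p under 0.05 stood 9 of the 31, 4 higher and 5 lower, against 7.55% of all genes, and DESeq2 and limma-voom also called 0 of the 31. The libraries of the 2 genotypes did not overlap in 6 genes. Hk1 was higher, and Tpi1, Gys1, Ldha, Phkb and Pkm were lower, against 2.75% of all genes higher and 3.21% lower. The smallest adjusted p was 0.656, and a p above the threshold does not show that levels were alike.

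The genes with the smallest p were named. Hk1 stood at 11.7, 6.31 and 14.5 CPM in muscle dNdK 1 to 3, against 2.99, 3.22, 5.1 and 5.79 CPM in muscle Rosa26 1 to 4 (log2 fold change 1.36, SE 0.39, unadjusted p = 0.00631). All dNdK libraries were above the Rosa26 libraries, and the estimate without dNdK 3 was 1.06. Phkb stood at 1000, 1210 and 928 CPM in dNdK, against 1750, 1440, 1330 and 2010 CPM in Rosa26 (log2 fold change −0.62, SE 0.22, unadjusted p = 0.0177). Pkm stood at 4690, 5020 and 3840 CPM in dNdK, against 7030, 7220, 5210 and 7930 CPM in Rosa26 (log2 fold change −0.58, SE 0.22, unadjusted p = 0.0251). For both, every dNdK library was lower than every Rosa26 library, and dNdK 3 was the lowest. Gys1 stood at 466, 525 and 367 CPM in dNdK, against 796, 574, 603 and 703 CPM in Rosa26 (log2 fold change −0.54, SE 0.21, unadjusted p = 0.0284). Tpi1 stood at 2390, 2640 and 1810 CPM in dNdK, against 3650, 2840, 3120 and 4180 CPM in Rosa26 (log2 fold change −0.58, SE 0.22, unadjusted p = 0.0289). Without dNdK 3 the estimates of Phkb, Pkm, Gys1 and Tpi1 were −0.55, −0.49, −0.43 and −0.45.

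Pygl had the largest estimate in muscle, and it came from 1 library. It stood at 3.11, 3.62 and 219 CPM in muscle dNdK 1 to 3, against 5.04, 7, 3.92 and 4.4 CPM in muscle Rosa26 (log2 fold change 3.92, SE 1.26, unadjusted p = 0.0121). Only dNdK 3 was high, and without it the estimate was −0.58. Pfkl and Pfkp had the same profile, at 52.8 and 43.9 CPM in dNdK 3 against 3.4 to 8.22 and 6.35 to 16.9 CPM in the other 6 muscle libraries. Of the further pathway genes, Gys2 (4.59, SE 1.34, unadjusted p = 0.00707) and Slc16a7 (2.86, SE 0.96, unadjusted p = 0.0153) had the smallest p, and both were high in dNdK 3, at 67.6 and 37.3 CPM against 0.389 to 2.57 and 1.01 to 3.74 CPM. The summed level of 6 adipocyte genes was 4840 CPM in dNdK 3, against 86.2 to 525 CPM in the other muscle libraries, and that of 10 fast fibre genes was 193000 CPM, against 268000 to 324000 CPM. Of the muscle forms, Pygm (10000 CPM), Eno3 (7050 CPM), Pfkm (1910 CPM) and Slc16a3 (147 CPM) were lowest in dNdK 3, while Ppp1r3a was lowest in dNdK 1 (129 CPM) and Fbp2 in dNdK 2 (22.9 CPM).

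**Figure D3:**
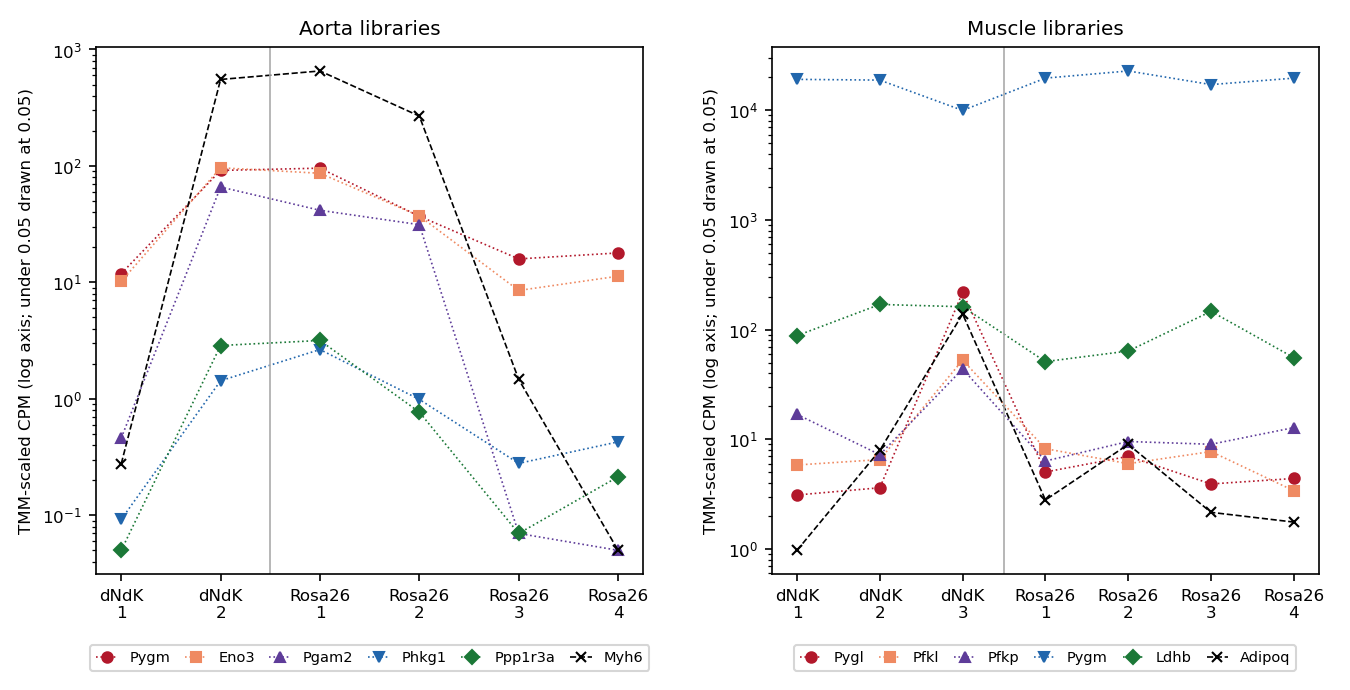
TMM-scaled CPM (y axis, log scale) in each aorta library (left panel) and each muscle library (right panel), with dNdK libraries left of Rosa26 libraries and values under 0.05 drawn at 0.05. Pygm, Eno3, Pgam2, Phkg1 and Ppp1r3a are high in the 3 aorta libraries with high Myh6, and Pygl, Pfkl and Pfkp are high in muscle dNdK 3, where Adipoq is at 139 CPM.

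Isoform ratios in muscle did not pass between the genotypes in any of the 12 families. Hk2 against Hk1 was the one family whose libraries did not overlap (−1.35, dNdK minus Rosa26, exact two-sided permutation p = 0.0286, the smallest possible, adjusted p = 0.343), with Hk1 at 2.98%, 1.24% and 3.01% of the counts of both in dNdK, against 0.7%, 0.651%, 1.22% and 1.07% in Rosa26. Ldhb against Ldha came next (1.28, exact permutation p = 0.0857, adjusted p = 0.514), with Ldhb at 1.44% to 2.98% in dNdK and 0.681% to 2.03% in Rosa26. Pfkm against Pfkl and Pfkp had −1.37, which was −0.19 without dNdK 3. In aorta, with 2 dNdK libraries, no exact p under 0.0667 was possible and 0 families passed. Aldoc against Aldoa (−0.57) and Ldhb against Ldha (−0.36) reached that p (exact two-sided permutation test, adjusted p = 0.4), with Ldhb at 16.9% and 14% in dNdK and 17% to 19.8% in Rosa26. Slc16a3 against Slc16a1 had −1.88 (exact permutation p = 0.133, adjusted p = 0.533), with at most 17 counts of Slc16a3 in any aorta library.

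In aorta, dNdK over Rosa26, 0 of 32 genes tested passed the edgeR test, against 0.00839% of all 11920 genes, which is 1 gene. DESeq2 and limma-voom also called 0 of the 32. Estimates were higher for 21 genes and lower for 11, with a median log2 fold change of 0.22 against −0.05 for all genes, of which 45.8% had higher estimates. At an unadjusted p under 0.05 stood 2 genes, both higher, against 5.98% of all genes. The libraries of the genotypes did not overlap in Gyg, Gpi1, Phkb, Ugp2 and Gbe1, which were higher, and in Slc16a3, which was lower, against 9.19% of all genes higher and 8.22% lower. The smallest adjusted p was 0.757.

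The genes with the smallest p in aorta were again named. Ugp2 stood at 260 and 275 CPM in aorta dNdK 1 and 2, against 238, 140, 118 and 140 CPM in aorta Rosa26 1 to 4 (log2 fold change 0.75, SE 0.30, unadjusted p = 0.0372). The gap to the nearest library, Rosa26 1, was small. Gyg stood at 187 and 229 CPM in dNdK, against 147, 137, 76 and 154 CPM in Rosa26 (log2 fold change 0.69, SE 0.30, unadjusted p = 0.0502). Phkb stood at 147 and 135 CPM in dNdK and 110, 84.6, 80.2 and 115 CPM in Rosa26 (0.53, SE 0.23, unadjusted p = 0.0482). Both dNdK libraries of Gyg and Phkb were above all Rosa26 libraries, with Rosa26 3 the lowest in each. Gbe1 stood at 337 and 353 CPM in dNdK and 282, 214, 170 and 280 CPM in Rosa26 (0.54, SE 0.26, unadjusted p = 0.0698). Slc16a3 had 2 and 7 counts in dNdK, against 8, 17, 11 and 12 counts in Rosa26 (−1.62, SE 0.91, unadjusted p = 0.11), and Pfkm stood at 80.7 and 101 CPM against 84.6, 72.1, 43.6 and 49.6 CPM (0.53, SE 0.31, unadjusted p = 0.119). With so few counts Slc16a3 is near the floor in aorta of both genotypes.

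Among the aorta libraries, Pgam2, Eno3, Pygm, Phkg1 and Ppp1r3a were high where Myh6 was high, while other muscle forms were not, such as Slc16a3, highest in Rosa26 4 (2.56 CPM), and Pfkm, higher in dNdK 1 (80.7 CPM) than in Rosa26 2 (72.1 CPM). Pgam2 stood at 0.461 and 65.9 CPM in aorta dNdK 1 and 2, against 41.6, 31.3, 0.0698 and 0 CPM in aorta Rosa26 1 to 4. Eno3 stood at 10.2 and 96.4 CPM in dNdK, against 86.5, 37.2, 8.52 and 11.3 CPM in Rosa26, and Pygm at 11.9 and 91.5 CPM, against 95.7, 37, 15.9 and 17.9 CPM. The high libraries for these 3 genes were dNdK 2 and Rosa26 1 and 2, which are the 3 with Myh6 at 268 CPM or more. Left with dNdK 1 and Rosa26 3 and 4, the estimates of Ugp2, Phkb, Gyg and Gbe1 were 1.04, 0.63, 0.74 and 0.61, and 0 of 29 genes tested passed, with the lone dNdK library taken to vary like the Rosa26 ones. Of the further pathway genes, Slc2a4, the insulin-regulated transporter GLUT4, was among those with the smallest p (0.87, SE 0.27, unadjusted p = 0.0113 by edgeR's quasi-likelihood test). Slc2a4 stood at 355 and 378 CPM in dNdK, against 268, 204, 147 and 180 CPM in Rosa26.

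**Figure D4:**
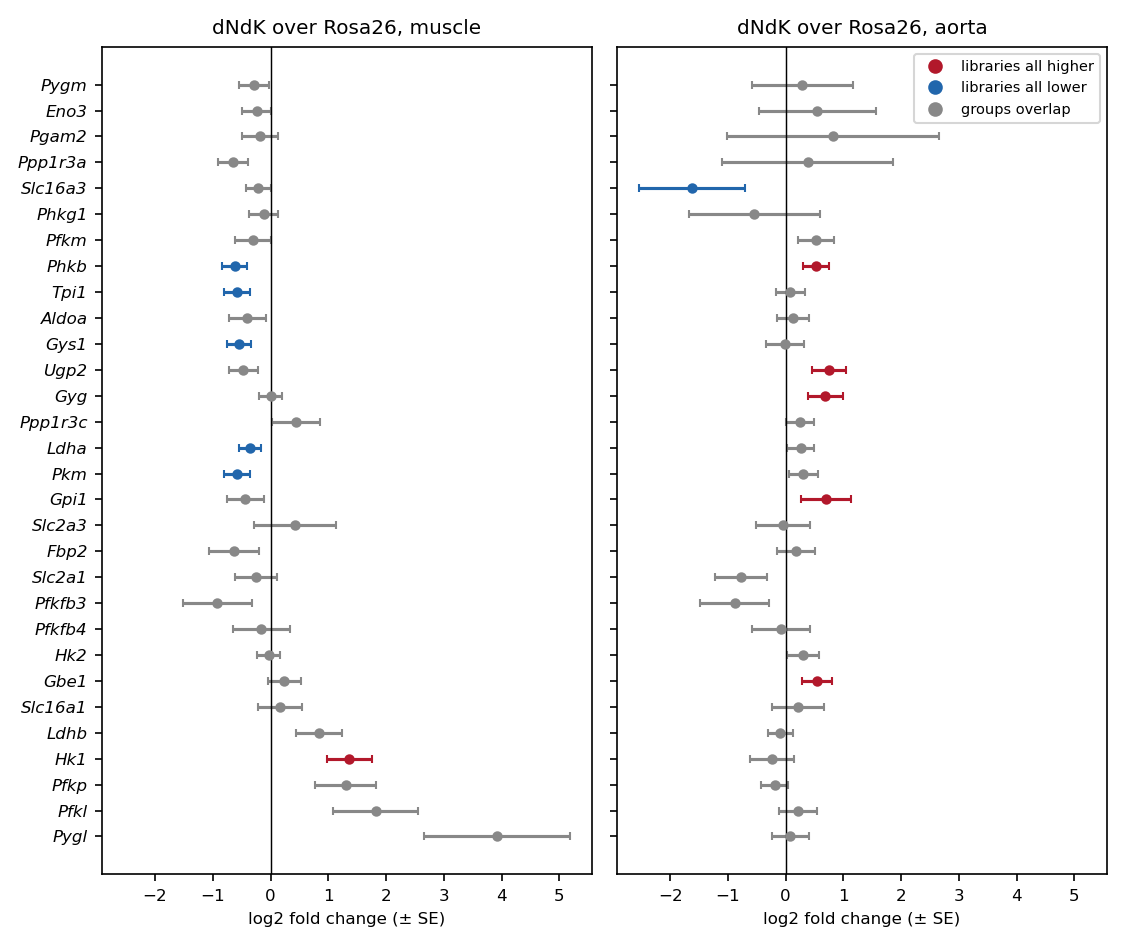
Log2 fold change of dNdK over Rosa26 (x axis, bars are ± SE) in muscle (left panel, n = 3 and 4) and aorta (right panel, n = 2 and 4), with genes in the order of their difference between tissues. Red and blue mark genes whose dNdK libraries were all above or all below the Rosa26 libraries, and no gene passed an adjusted p of 0.05. Phkb is lower in all dNdK libraries of muscle and higher in all dNdK libraries of aorta.

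The difference of the genotype effect between the tissues was tested in 1 fit of all 13 libraries, and 0 of 33 genes tested passed (edgeR; 0% of all 12318 genes; 5 of the 33 at an unadjusted p under 0.05 against 8.48% of all genes; DESeq2 and limma-voom also called 0). Phkb had the smallest p, with a difference of −1.17 (SE 0.34, unadjusted p = 0.00457, adjusted p = 0.583), made up of −0.62 in muscle and 0.53 in aorta. Ugp2 had a difference of −1.24 (SE 0.43, unadjusted p = 0.012) and Hk1 of 1.57 (SE 0.56, unadjusted p = 0.0152). Among further pathway genes Slc2a4 had −1.10 (SE 0.33, unadjusted p = 0.00572) and Pgm2, a phosphoglucomutase, −1.17 (SE 0.41, unadjusted p = 0.013). With the number of the deposited names as a block, 206 genes passed, among them Pygl (5.67, adjusted p = 0.00521) and Pfkp (2.40, adjusted p = 0.0368). In that fit a single number joins dNdK libraries of both tissues, aorta dNdK 1 and muscle dNdK 3, the muscle library with fat RNA.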

How the data were processed

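The deposited tables hold raw counts of reads per gene for 1 library each, made by the authors with STAR 2.5.2b on mm10 (GRCm38.p6), per the submitters' processing notes. Those notes also name edgeR 3.28.1 and limma 3.42.2. The column of both strands was used, with 46.34% to 49.33% of reads on the first strand, and 4 lines of each table that name no gene were left out (86.66% to 91.42% of reads were on genes). Primers amplify cDNA without molecular identifiers, so floors cover counting error only. The SE and SD given also hold the spread between libraries. Groups came from the labels. The labels do not say that libraries of a group are separate animals, and p-values measure the spread between these libraries. Library pairs within a group differed beyond sampling noise (chi-square per degree of freedom 19.6 to 132 over 16 pairs).

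In R 4.3.3, the filter filterByExpr of edgeR 4.0.16 (min.count 10, min.total.count 15) chose the genes for each fit. TMM factors and its quasi-likelihood test followed, with Benjamini-Hochberg adjustment over all genes tested. SE was taken from each estimate and the root of its F value. Isoform ratios took log2 counts plus 0.5 and an exact permutation test. Alternatives were DESeq2 1.42.0, limma-voom (limma 3.58.1), other scalings, filters, strands, blocks and left-out libraries. The steps were tested on simulated data. Transcripts were matched to pseudogenes with blastn 2.17.0. Numbers in the deposited names recur across tissues in 4 pairs of libraries. The title numbers give the same pair only for Rosa26 4 of both tissues. Deviations from the group means correlated at r 0.138 to 0.282 in the 4 recurring pairs and at r −0.335 to 0.277 in pairs by title number. Some title pairs thus reached similar r, so r alone does not settle the pairing. The main fits and the permutation tests took the libraries as independent. The number in the deposited names was a block in an alternative fit only. With that block, 17 listed genes were higher and 7 lower in muscle than in aorta, of 33 tested. All genes of the list could be named between tissues, and between genotypes the 6 with the smallest p, with 3 for the difference between tissues. The genes, lists and tests were chosen with earlier results of these data known.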

Additional observations from a re-analysis of the deposited data

Results flagged for a closer look

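Within groups of 4, 3 values lay apart from the others by Dixon's criterion, which flags about 1 group in 20 by chance, among 33 genes tried in aorta Rosa26 and 32 in muscle Rosa26. Pygl stood at 1130 CPM in aorta Rosa26 4, against 572 to 625 CPM in aorta Rosa26 1 to 3. Gyg stood at 76 CPM in aorta Rosa26 3, against 137 to 154 CPM in the other 3. Gapdh stood at 0.604 CPM in aorta Rosa26 2, against 0.209 to 0.221 CPM in the others, all near the floor of detection.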

How the results depend on the processing

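The tissue counts of 17 higher and 8 lower were 16 to 17 and 7 to 8 when each library was left out, and moved by more than 1.5 times in dNdK libraries alone (10 and 5), which are fewer. For the genotype comparisons and their difference between tissues, 0 of the listed genes passed under every alternative run except the replicate block on the number of the deposited names, where 2 passed for the difference. By scaling with total counts, which moved the median of all genes by −0.88, Fbp2 was −0.27, Slc2a1 −0.39, Slc2a3 −0.27 and Pfkfb3 −0.66, and Hk2 passed as lower (−0.98). Without the aorta libraries with heart RNA, Hk2 was 0.22, Pfkfb3 −0.42 and Pfkfb4 0.43. With the block on deposited names, Pfkfb3 was −0.29 and Pfkfb4 0.50. With the replicate block on the title number Slc2a3 was −0.02 and Pfkfb4 0.07. Title numbers pair libraries as the deposited names do only for Rosa26 4 of both tissues (r −0.335 to 0.277 over the title pairs). That title block changed no call of these genes while the genes called in aorta went to 163. Pfkfb4 was also 0.03 with DESeq2 and with RLE factors, 0.02 without a filter and 0.01 in 1 fit of 13 libraries. In dNdK libraries Gpi1 was −0.29 and Fbp2 −0.27. The Pfkfb3 ratio was 0.05 on the second strand. Over the left-out libraries, Pfkfb3 ranged from −0.75 to 0.62, Pfkfb4 from −0.16 to 0.36, Slc2a3 from −0.67 to 0.95, Pygl between genotypes in muscle from −0.58 to 4.48, the Pfkfb3 ratio from −0.81 to 0.55 and the Slc2a1 ratio from −0.01 to 1.52. Except where given in the text, the cause of these changes was not tested. The number of libraries, 2 to 4 a group, limits the genotype comparisons.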
